A study of Mus musculus with 289 samples.

Results

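Transcripts of 6 cytochrome P450 genes (Cyp2d22, Cyp4f13, Cyp4f14, Cyp4f15, Cyp2j9 and Cyp7b1) and 3 glutathione transferase genes (Gstm1, Gstm5 and Gsta4) were measured in single astrocytes of the adult mouse cortex. The 9 genes were taken by name from the 55487 genes of the largest of 5 batch tables, and each was found in all 5 tables. They were selected on measured values: in earlier results from the same tables, Cyp2d22 and Gstm5 were lower in cells with both guides than in control cells of batches 4 and 2. The levels of those genes in those comparisons are therefore a description and support nothing.

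The mice carried a Cas9 transgene, which was shared by every group, and a lentivirus built for expression in astrocytes was injected into the cortex. Cells were labelled as Sox9 gRNA, Trps1 gRNA, dual gRNA (guides against both genes), control gRNA or no gRNA. The gRNA cells of batches 2 to 5 were collected 7 or 21 days after injection. Cells were taken with an electrophysiology pipette and made into Smart-seq2 libraries, which read whole transcripts and carry no molecular identifiers. Of 289 labelled samples, 254 were analysed here, 242 of them astrocytes in 16 pools of 1 label, day and batch, and 12 in-slice controls, for which the pipette went into the slice without taking up a cell; 35 samples of batch 4 were not analysed here.

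In batch 5 there were 21 Sox9 gRNA and 30 Trps1 gRNA cells, all taken at day 21, beside 23 no gRNA cells. In batch 4 the day 21 cells were 13 dual gRNA, 16 Sox9 gRNA and 15 control gRNA, with 15 Trps1 gRNA cells taken at day 7. In batch 3, 21 Sox9 gRNA and 14 dual gRNA cells were taken at day 7 beside 6 no gRNA cells. In batch 2 there were 8 dual gRNA cells and 7 control gRNA cells of day 21 and 8 control gRNA cells of day 7. In batch 1 there were 4 dual gRNA, 10 control gRNA and 31 no gRNA cells, and its days were not used, because the labels give dual and control cells different ranges of days. No gRNA cells are labelled adult, without a day. The labels name no animal, so each pool counts as 1 sample and no test between pools was possible. The sources used here do not say whether any virus was given to the animals behind the no gRNA cells, so in a comparison with no gRNA cells the guide, the virus and the injection cannot be told apart.

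Cytochrome P450 enzymes are heme proteins that insert oxygen into lipids, sterols and foreign compounds, with electrons passed on by the reductase Por. Glutathione transferases attach glutathione to reactive products, among them aldehydes from oxidised lipids. In the brain both families are known from glia and from the blood-brain interface, and astrocytes supply neurons with precursors of glutathione. Each gene's role below is background knowledge, not a result.

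Several of the members share a gene cluster. Cyp4f13 (chr17:32924688-32947402), Cyp4f14 (chr17:32905070-32917342) and Cyp4f15 (chr17:32685627-32703352) sit in 1 cluster of chromosome 17, and Gstm1 (chr3:108012255-108017973) and Gstm5 (chr3:107895821-107898686) in 1 cluster of chromosome 3 (GRCm38, GENCODE vM21). Cyp2d22 lies at chr15:82370527-82380260, Cyp2j9 at chr4:96568429-96591578, Cyp7b1 at chr3:18071950-18243338 and Gsta4 at chr9:78182774-78209349. All are annotated as protein coding.

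Near-identical copies limit some of these counts. Of all 50-base windows of Gstm1 exons, 18.9% also occur in another gene, chiefly Gstm2-ps1 (14.1%) and Gstm3 (8.16%). That share was 4.13% for Cyp2d22 and between 1.11% and 2.39% for the 3 Cyp4f genes, and no such window was found for Cyp2j9, Cyp7b1, Gstm5 or Gsta4. Exons of Gstm5 overlap those of the antisense gene 4933431E20Rik, and the sources used here do not say how strand was handled.

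Promoter sequences are shown for 3 members, Gstm1, Gstm5 and Cyp2j9. Gstm1 and Gstm5 are of 1 class and 1 cluster, yet differed in opposite directions in dual gRNA cells of batches 2 and 1. The window of Cyp2j9 alone among those matched held AGATAA. RefSeq sequences (GRCm38.p6, 250 bases before to 50 after a start) matched 6 of the 9 genes, and Cyp2d22, Cyp7b1 and Gsta4 had none. A set of 4 short motifs was searched on both strands: TGACNNNGC, the antioxidant response element; AACAAT, the core bound by SOX proteins; AGATAA, a core bound by GATA-type factors; and TATAAA, which marks many start sites. None contains another. Capitals mark the matches, and positions count from 1 at the 5′ end of each window.
Gstm1, second start, chr3:108017769-108018068, minus strand: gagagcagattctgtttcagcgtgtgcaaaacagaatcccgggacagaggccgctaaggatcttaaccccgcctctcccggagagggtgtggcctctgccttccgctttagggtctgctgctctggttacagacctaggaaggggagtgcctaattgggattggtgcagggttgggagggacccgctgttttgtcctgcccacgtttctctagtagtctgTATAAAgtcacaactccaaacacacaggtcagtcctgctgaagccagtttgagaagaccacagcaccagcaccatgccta
Gstm5, chr3:107895604-107895903, plus strand: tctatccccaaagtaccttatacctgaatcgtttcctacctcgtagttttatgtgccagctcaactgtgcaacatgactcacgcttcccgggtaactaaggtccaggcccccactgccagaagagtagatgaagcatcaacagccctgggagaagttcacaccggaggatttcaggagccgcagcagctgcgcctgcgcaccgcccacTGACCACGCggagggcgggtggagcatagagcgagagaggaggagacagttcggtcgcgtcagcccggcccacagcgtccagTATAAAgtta
Cyp2j9, chr4:96591436-96591735, minus strand: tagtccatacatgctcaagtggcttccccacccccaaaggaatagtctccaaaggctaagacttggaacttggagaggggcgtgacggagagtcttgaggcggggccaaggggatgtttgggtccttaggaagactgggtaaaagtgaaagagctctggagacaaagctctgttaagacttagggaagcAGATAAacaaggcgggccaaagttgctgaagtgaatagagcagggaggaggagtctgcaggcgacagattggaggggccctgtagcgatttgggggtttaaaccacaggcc
The Gstm1 window holds TATAAA at position 221, before the start. The Gstm5 window holds TGACCACGC, a match to TGACNNNGC, at position 209, and TATAAA at position 291, after the start. The Cyp2j9 window holds AGATAA at position 190. One of the Cyp4f14 windows holds TGACCAAGC, also a match to TGACNNNGC, and AACAAT was in no window of these genes. Of 32851 promoters in the table, 12.4% hold TGACNNNGC, 10.7% AACAAT, 11.2% AGATAA and 13.6% TATAAA. A match is a run of letters, not evidence of binding.

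Astrocyte libraries held 15959 to 4656612 reads in genes (median 1094502), and 3 no gRNA cells of batch 3 held under 100000. Median reads per cell were close within batches 2, 4 and 5, while no gRNA cells of batch 3 had a median of 236508 reads, against 1444750 in Sox9 gRNA cells. The target genes did not follow the labels throughout. Sox9 stood at 189 CPM (reads of a gene scaled to a total of 1000000 reads in genes) in cells labelled Sox9 gRNA, 133 CPM in dual gRNA cells and 177 CPM in control gRNA cells of batch 4, and in batch 3 it was higher in cells labelled Sox9 gRNA (1303 CPM) and dual gRNA (1492 CPM) than in no gRNA cells (382 CPM). Trps1 stood at 57.6 CPM in Trps1 gRNA cells, against 91.9 CPM in no gRNA cells of batch 5, and at 16.7 CPM in dual gRNA cells, against 3.35 CPM in control gRNA cells of batch 4. In batch 1 Sox9 stood at 1860 CPM in dual gRNA cells, against 209 CPM in control gRNA cells. Trps1 stood at 112 CPM, against 4.61 CPM, in the same pools. In batch 2 at day 21 Sox9 was also higher in dual gRNA cells (905 CPM) than in control gRNA cells (491 CPM). There Trps1 was lower in dual gRNA cells (19.4 CPM, against 107 CPM). Pools are named by their labels, and every direction below rests on those labels.

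Markers of other cells moved with the groups. Summed over 10 astrocyte markers, levels were 1724 CPM in dual gRNA and 8516 CPM in Sox9 gRNA cells of batch 4, against 7658 CPM in control gRNA cells. The 10 markers of microglia and macrophages summed to 8806 CPM in Sox9 gRNA and 6620 CPM in Trps1 gRNA cells of batch 5, against 247 CPM in no gRNA cells. Single Sox9 gRNA cells ran from 4.73 to 38685 CPM and Trps1 gRNA cells from 0.842 to 33459 CPM, against 0 to 1174 CPM in no gRNA cells. In batch 4 they summed to 10693 CPM in dual gRNA and 4598 CPM in Sox9 gRNA cells, against 9683 CPM in control gRNA cells. All 10 microglial markers were read in each of these pools. The part of these differences in the results below was not tested.

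Pooled levels are reads of a gene over all reads in genes of the pool's cells, in CPM, with exact Poisson 95% intervals; shares of cells carry exact Clopper-Pearson 95% intervals. Both cover counting error only, since reads without molecular identifiers are not independent molecules.

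The transferases of the mu class were the most widely read members. Gstm1 had a read in 195 of 242 astrocytes (80.6%) and Gstm5 in 159 (65.7%). Cyp2d22 (90 cells, 37.2%), Cyp4f15 (89, 36.8%), Cyp2j9 (86, 35.5%) and Cyp4f13 (77, 31.8%) followed. Cyp4f14 (56 cells, 23.1%), Gsta4 (53, 21.9%) and Cyp7b1 (49, 20.2%) were read least often.

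Members differed in how often a cell with a read reached 100 CPM. Gstm1 did so in 153 of 195 cells, Cyp4f15 in 65 of 89, Gstm5 in 107 of 159 and Cyp2j9 in 53 of 86. The counts were 50 of 90 for Cyp2d22, 35 of 77 for Cyp4f13, 22 of 53 for Gsta4, 19 of 49 for Cyp7b1 and 20 of 56 for Cyp4f14, so the last 4 stayed below that level in most of their cells with a read. Among cells with a read, the median level was 431 CPM for Gstm1, 256 CPM for both Cyp4f15 and Gstm5, 158 CPM for Cyp2d22 and 42.0 CPM for Cyp4f14. The highest single cells held 3762 CPM of Gstm1 and 3502 CPM of Cyp4f13.

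Per kilobase of exon, levels in no gRNA cells of batch 5 ran in the order Gstm1 (502 CPM per kb), Gstm5 (355), Cyp4f15 (213), Cyp2j9 (59.7), Cyp2d22 (56.0), Gsta4 (41.0), Cyp4f13 (24.1), Cyp7b1 (20.9) and Cyp4f14 (15.98). Every one of these genes was at 0 in at least 1 of the 23 cells, so the cells of all neighbours in this order overlapped. Across all 16 pools the lowest cell of a member was at 0, except for Gstm1 in dual gRNA cells of batch 1 (292 CPM) and no gRNA cells of batch 3 (52.5 CPM). In the accounts of single members below, an astrocyte pool given with its share of cells and no cell median had a median of 0.

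**Figure D1:**
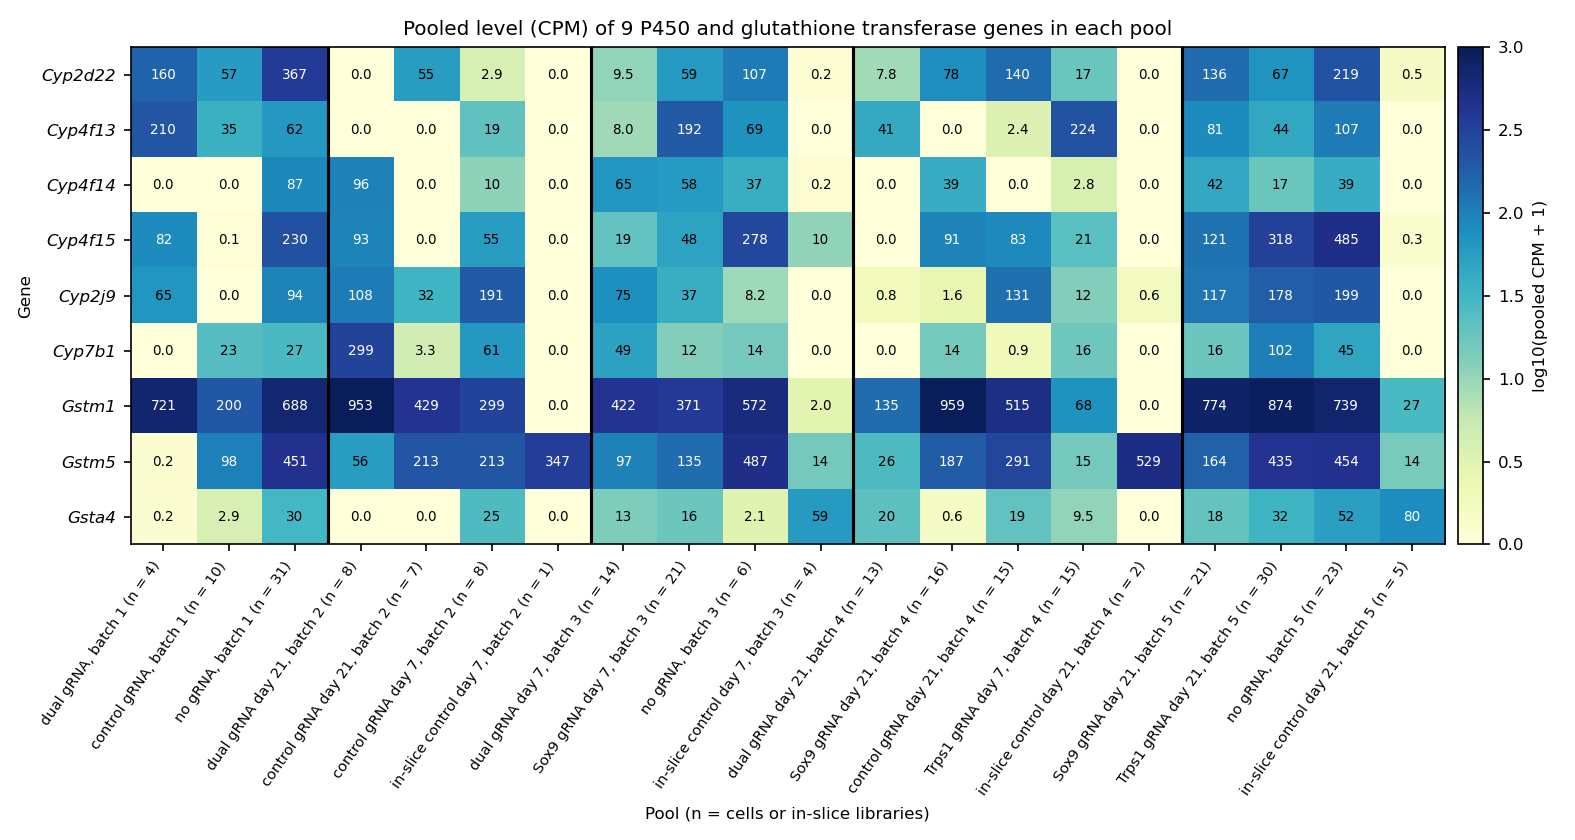
Pooled level of each member (rows) in each of the 16 astrocyte pools and 4 in-slice pools (columns; black lines divide the batches), coloured by log10(pooled CPM + 1) with the CPM printed in each square. Gstm1 is the highest member in 15 of the 16 astrocyte pools, while dual gRNA cells of batch 4 show 0 for Cyp4f14, Cyp4f15 and Cyp7b1.

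The number of the 9 genes read in a cell differed between pools. In batch 5 the median was 4 genes in Sox9 gRNA cells (range 1 to 7) and 4 in Trps1 gRNA cells (1 to 8), against 7 in no gRNA cells (1 to 9). After every cell was thinned to an equal number of reads the medians were 3 and 4, against 6. In batch 4 the medians were 1 in dual gRNA cells (0 to 4) and 2.5 in Sox9 gRNA cells (0 to 6), against 2 in control gRNA cells (0 to 7), and after thinning 1 and 2, against 2. In batch 1 they were 3.5 in dual and 3 in control gRNA cells, and 4 in no gRNA cells, and after thinning 1.5 in dual and 1.5 in control gRNA cells, and 3 in no gRNA cells. The ranges of the compared pools overlapped in each batch.

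**Figure D2:**
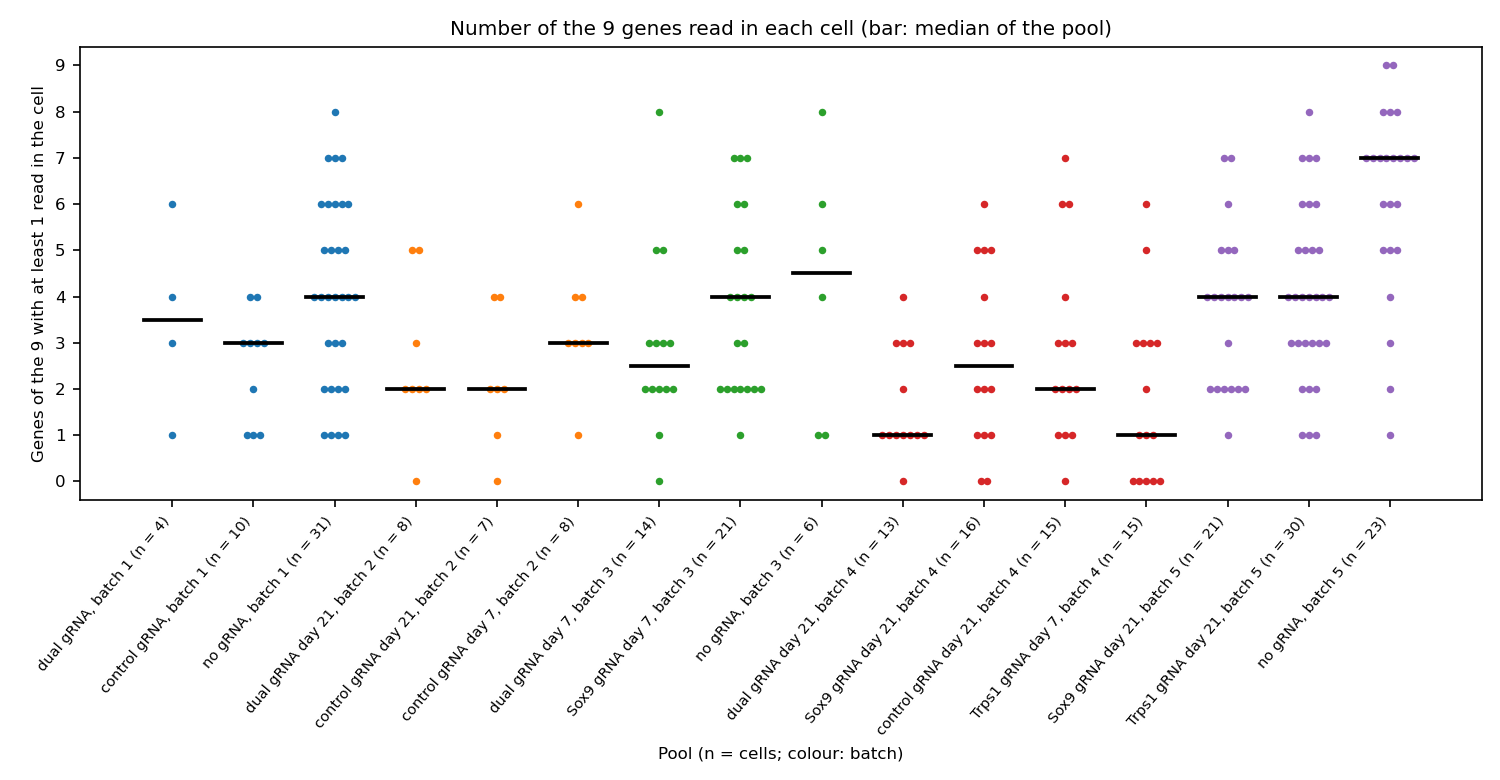
Number of the 9 genes with at least 1 read in each astrocyte (points, coloured by batch; the bar marks the pool's median). No gRNA cells of batch 5 have a median of 7, above the medians of 4 in both gRNA pools, and the ranges overlap.

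Gstm1 encodes a mu-class transferase that conjugates glutathione to many electrophiles. In batch 4 its level was 135 CPM in dual gRNA cells (129.6 to 141; 8 of 13 cells with a read; cell median 1.83, highest 737 CPM) and 959 CPM in Sox9 gRNA cells (12 of 16; cell median 463, highest 3619 CPM), against 515 CPM in control gRNA cells (504 to 525; 11 of 15; cell median 6.77, highest 1867 CPM). The lowest cell was at 0 in all 3 pools and their ranges overlapped. In batch 2 it was 953 CPM in dual gRNA cells (6 of 8; cell median 459 CPM), against 429 CPM in control gRNA cells of day 21 (6 of 7; cell median 322 CPM), of which 57.2% came from 1 cell. In batch 1 the 4 dual gRNA cells held 292, 382, 567 and 1496 CPM, against a cell median of 1.20 CPM in control gRNA cells (7 of 10; highest 1603 CPM). All 4 dual gRNA cells stood above the control median, and the highest control cell stood above them.

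In batch 5 Gstm1 hardly differed between labels. It was 774 CPM in Sox9 gRNA cells (20 of 21 with a read) and 874 CPM in Trps1 gRNA cells (27 of 30), against 739 CPM in no gRNA cells (20 of 23), and the cell medians were 470 and 500.3 CPM, against 659 CPM. In batch 3 it was 371 CPM in Sox9 gRNA (17 of 21; cell median 203 CPM) and 422 CPM in dual gRNA cells (11 of 14; 251 CPM), against 572 CPM in no gRNA cells (6 of 6; 337 CPM). In the Trps1 gRNA cells of batch 4, taken at day 7, it was 68.3 CPM (6 of 15 with a read), the lowest Gstm1 level of the 16 pools, and no other pool of that batch shares their day.

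Gstm5 is a second mu-class transferase. In batch 5 it was 164 CPM in Sox9 gRNA cells (158 to 170.3; 15 of 21 cells; median 64.4, highest 623 CPM) and 435.5 CPM in Trps1 gRNA cells (24 of 30; median 317, highest 1880 CPM), against 454 CPM in no gRNA cells (444 to 464; 22 of 23; median 450.2, highest 1269 CPM). The cells of the 3 pools overlapped, although 21 of 23 no gRNA cells reached 100 CPM, and only 9 of 21 Sox9 gRNA cells did. In batch 4 Gstm5 was 25.6 CPM in dual gRNA cells (3 of 13; highest 199.9 CPM) and 187 CPM in Sox9 gRNA cells (9 of 16; median 3.37, highest 1516 CPM), against 291 CPM in control gRNA cells (8 of 15; median 2.26, highest 1118 CPM). In batch 2 it was 55.5 CPM in dual gRNA cells (3 of 8; highest 335 CPM), against 213 CPM in control gRNA cells of day 21 (4 of 7; median 0.740, highest 1254 CPM). All of these pools had cells at 0 and their ranges overlapped.

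The antisense gene 4933431E20Rik was 2.69 CPM in dual gRNA and 19.95 CPM in Sox9 gRNA cells of batch 4, against 36.1 CPM in control gRNA cells, and 45.4 CPM in Sox9 gRNA and 112 CPM in Trps1 gRNA cells of batch 5, against 131 CPM in no gRNA cells. In batch 2 it had no read in dual gRNA cells or in control gRNA cells of day 21. In batch 1 it lay the opposite way from Gstm5. The antisense gene was 58.1 CPM in dual gRNA cells, against 7.69 CPM in control gRNA cells. Gstm5 was 0.184 CPM in dual gRNA cells, against 98.3 CPM in control gRNA cells (6 of 10 cells, median 0.817 CPM). Which strand these reads came from was not tested. Gstm5 was also read where no cell had been taken: in-slice controls held 347 CPM in batch 2 (1 library), 14.3 CPM in batch 3, all in 1 of 4 libraries, 529.5 CPM in batch 4, where 1 library held 1204 CPM and the other 1.12 CPM, and 13.8 CPM in batch 5, all in 1 of 5.

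Gsta4 encodes an alpha-class transferase that conjugates 4-hydroxynonenal, an aldehyde from oxidised lipids. It was 18.4 CPM in Sox9 gRNA cells of batch 5 (16.5 to 20.6; 3 of 21 cells; highest 183 CPM) and 32.3 CPM in Trps1 gRNA cells (10 of 30; highest 208 CPM), against 51.9 CPM in no gRNA cells (48.6 to 55.4; 10 of 23; highest 304 CPM). The cell medians of all 3 pools were 0. In-slice controls of that batch held 80.0 CPM, all of it in 1 of 5 libraries, while the other libraries were at 0. In batch 4 it was 20.5 CPM in dual gRNA cells, with 99.4% of reads in 1 cell, and 0.572 CPM in Sox9 gRNA cells (1 of 16), against 18.6 CPM in control gRNA cells (3 of 15).

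Cyp2d22 belongs to the CYP2D family, which oxidises drugs and, in the brain, monoamine-related compounds. In batch 4 it was 7.76 CPM in dual gRNA cells (6.49 to 9.22; 2 of 13; highest 72.3 CPM) and 77.8 CPM in Sox9 gRNA cells (5 of 16; highest 870 CPM), against 140.3 CPM in control gRNA cells (134.9 to 146; 8 of 15; cell median 0.451, highest 843 CPM). In batch 2 no read of it was found in the 8 dual gRNA cells, a share of 0% that allows up to 36.9%, against 54.97 CPM in control gRNA cells of day 21, with 92.9% of reads in 1 of 7 cells. Cells at 0 were in every one of these pools, and 2 of 15 control gRNA cells of batch 4 reached 100 CPM, against none of 13 dual gRNA cells.

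The 2 highest shares of cells with a Cyp2d22 read were in no gRNA cells of batches 5 and 1. Its level was 136 CPM in Sox9 gRNA cells of batch 5 (9 of 21, 42.9%, 21.8% to 66.0%) and 67.2 CPM in Trps1 gRNA cells (9 of 30, 30%, 14.7% to 49.4%), against 219 CPM in no gRNA cells (16 of 23, 69.6%, 47.1% to 86.8%). The cell median was 273 CPM in no gRNA cells and 0 in both gRNA pools. In batch 1, 20 of 31 no gRNA cells had a read (367 CPM; cell median 4.58, highest 1881 CPM), while dual gRNA cells held 160.4 CPM, all of it in 1 of 4 cells, and control gRNA cells 57.3 CPM, 99.4% of it in 1 of 10.

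**Figure D3:**
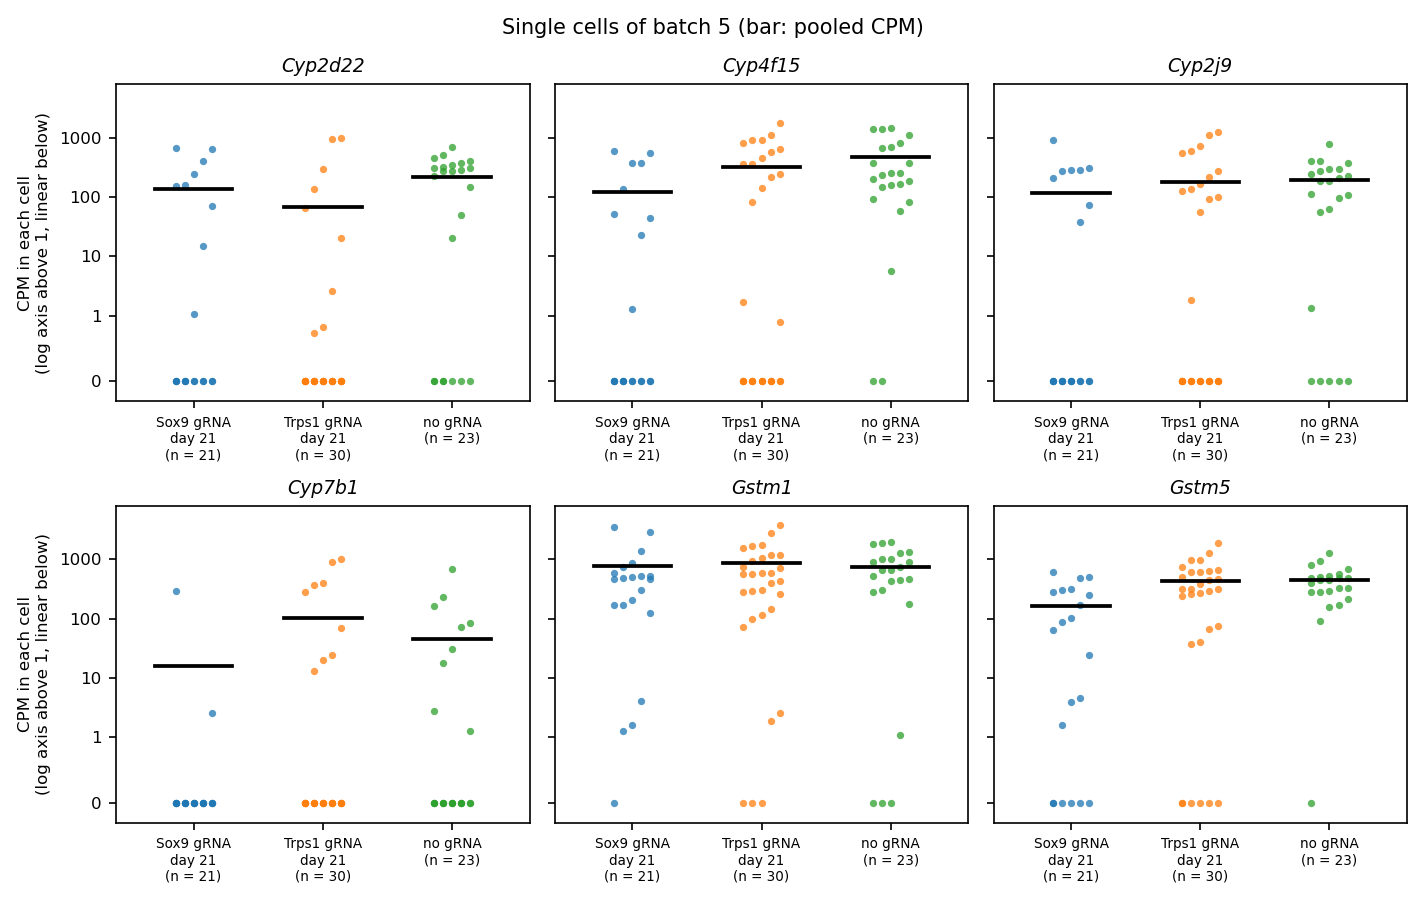
Levels (CPM, log axis above 1 and linear below) of 6 members in every astrocyte of batch 5, in Sox9 gRNA, Trps1 gRNA and no gRNA cells; each point is a cell, the bar is the pooled CPM, and many cells at 0 lie on top of each other. Gstm1 is read in most cells under each label, while Cyp4f15 is read in 21 of 23 no gRNA cells, against 9 of 21 Sox9 gRNA cells.

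The CYP4F enzymes add a hydroxyl group to the end of long fatty acids and eicosanoids such as leukotriene B4. Cyp4f15 was the highest of the 3 in cells without a gRNA. In batch 5 it was 121 CPM in Sox9 gRNA cells (116 to 127; 9 of 21 cells; median 0, highest 611 CPM) and 318 CPM in Trps1 gRNA cells (16 of 30; median 1.32, highest 1772 CPM), against 485 CPM in no gRNA cells (475 to 496; 21 of 23, 91.3%; median 236, highest 1457 CPM). The intervals of the share of cells were 21.8% to 66.0% in Sox9 gRNA and 34.3% to 71.7% in Trps1 gRNA cells, against 72.0% to 98.9% in no gRNA cells.

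Guide-labelled pools of the other batches gave no single order for Cyp4f15. It had no read in 13 dual gRNA cells of batch 4 (a share of up to 24.7%) and 90.7 CPM in Sox9 gRNA cells (8 of 16; cell median 0.424 CPM), against 82.8 CPM in control gRNA cells (3 of 15, 87.9% of reads in 1 cell). In batch 2 it was 93.4 CPM in dual gRNA cells (3 of 8), while none of the 7 control gRNA cells of day 21 had a read. In batch 1 it was 1 read in 10 control gRNA cells, against 230 CPM in no gRNA cells (15 of 31; highest 1325 CPM).

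Cyp4f13 and Cyp4f14 were read in fewer cells. Cyp4f13 was highest in Trps1 gRNA cells of day 7 in batch 4 (224 CPM, 7 of 15), in dual gRNA cells of batch 1 (210.0 CPM, 99.8% of reads in 1 of 4 cells; cell median 1.24 CPM) and in Sox9 gRNA cells of day 7 in batch 3 (192 CPM, 12 of 21, cell median 26.8, highest 1084 CPM), where dual gRNA cells held 7.95 CPM (2 of 14) and no gRNA cells 68.8 CPM (2 of 6). In batch 5 it was 81.2 CPM in Sox9 gRNA cells (8 of 21, 54.6% of reads in 1 cell) and 43.9 CPM in Trps1 gRNA cells (6 of 30), against 107 CPM in no gRNA cells (13 of 23; cell median 16.2 CPM). Cyp4f14 had no read in 5 of the 16 pools and reached 96.1 CPM in dual gRNA cells of batch 2, all of it in 1 of 8 cells. In batch 5 it was 41.7 CPM in Sox9 gRNA cells (5 of 21) and 16.9 CPM in Trps1 gRNA cells (7 of 30), against 38.7 CPM in no gRNA cells (12 of 23; cell median 1.15 CPM).

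Cyp2j9 converts arachidonic acid to hydroxylated and epoxidised products. In batch 4 it was 0.776 CPM in dual gRNA cells (2 of 13; highest 29.9 CPM) and 1.60 CPM in Sox9 gRNA cells (3 of 16; highest 25.5 CPM), against 131 CPM in control gRNA cells (125.8 to 136; 3 of 15), where all 3 cells with a read were above 100 CPM. The difference lay in those 3 control cells, since 12 of 15 control cells were at 0. In batch 5 it was 117 CPM in Sox9 gRNA cells (8 of 21; median 0, highest 915 CPM) and 178 CPM in Trps1 gRNA cells (14 of 30; median 0, highest 1247 CPM), against 199 CPM in no gRNA cells (18 of 23; median 188, highest 787 CPM). The pools' cells overlapped.

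Cyp7b1 hydroxylates oxysterols such as 25-hydroxycholesterol and neurosteroids. In batch 5 it was 16.04 CPM in Sox9 gRNA cells (2 of 21; 99.3% of reads in 1 cell) and 102 CPM in Trps1 gRNA cells (97.9 to 105.6; 9 of 30; highest 1012 CPM), against 45.4 CPM in no gRNA cells (42.3 to 48.6; 9 of 23; highest 694 CPM). In batch 2 it reached 299 CPM in dual gRNA cells (4 of 8; cell median 0.147 CPM; 93.0% of reads in 1 cell), against 3.35 CPM in control gRNA cells of day 21 (1 of 7). In batch 4 the pooled level was 0 in dual gRNA cells, against 0.935 CPM in control gRNA cells (2 of 15; highest 49.1 CPM).

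Pools were then compared within each batch. The ratio was log2((CPM + 5)/(CPM + 5)), a scale that understates differences of low genes and that bounds nothing where a pool is at 0. Genes of at least 5 CPM in either pool were compared, and a gene was called higher or lower where the ratio was 1 or more in size with all cells and again after the highest cell for that gene was taken out of each pool. A member that passed 5 CPM only through its higher pool had to differ, so counts over those compared are read only beside the same share over all genes.

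Dual gRNA against control gRNA at day 21 was compared in batches 4 and 2. In batch 4, 7 members were compared, of which 0 were called higher (7.72% of all genes) and 5 lower (18.02% of all genes). These were Cyp2j9 (log2 ratio -4.56), Cyp4f15 (-4.14; at least 462-fold lower against a floor of 3 reads in the pool), Cyp2d22 (-3.51), Gstm5 (-3.28) and Gstm1 (-1.89). Their directions held without the highest cells, with ratios of -3.88, -1.69, -4.26, -4.36 and -2.39 in that order. The median over the 7 was -3.28, against -0.43 over all 11534 genes. Since the choice of members drew on this contrast, nothing is read from the excess of lower members. The summed astrocyte markers were also lower in these dual gRNA cells (1724 against 7658 CPM), and after scaling to those markers, an alternative chosen after seeing the data, the Gstm1 ratio was 0.22 in place of -1.89.

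**Figure D4:**
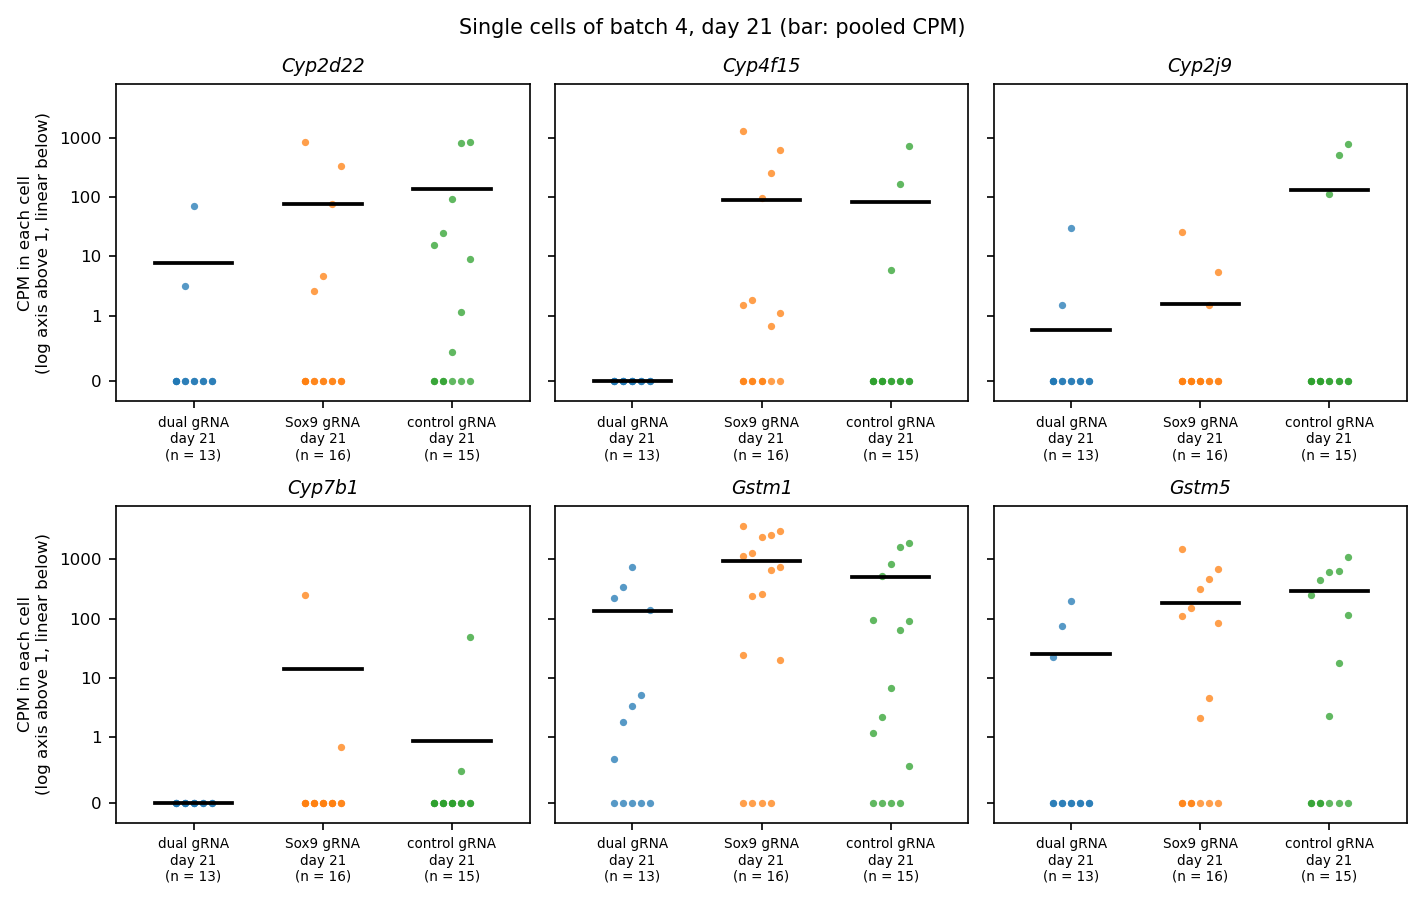
Levels (CPM, log axis above 1 and linear below) of 6 members in every day 21 astrocyte of batch 4, in dual gRNA, Sox9 gRNA and control gRNA cells; each point is a cell, the bar is the pooled CPM, and many cells at 0 lie on top of each other. Cyp4f15 has no read in any of 13 dual gRNA cells, and Gstm1 is read in 8 of them with a highest cell of 737 CPM.

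In batch 2 the same contrast gave another picture. Of 7 members compared, 3 were called higher (11.8% of all genes) and 1 lower (14.5%). Cyp7b1 (5.18), Cyp4f15 (4.30; at least 465-fold higher) and Gstm1 (1.14) were higher and Gstm5 (-1.85) was lower. Cyp2d22 was at least 380-fold lower (ratio -3.58) but was not called, because the ratio without its highest control cell was -0.91. Cyp4f14 was at least 478-fold higher through a single cell and was not called. The median was 1.60, against -0.37 over all 9185 genes. It equals the ratio of Cyp2j9 (108 CPM in dual gRNA cells, against 32.1 CPM in control gRNA cells), which was not called. Of its dual gRNA reads 85.8% lay in 1 of 8 cells, and its ratio without the highest cells was -0.08. Astrocyte markers summed to 13338 CPM in dual gRNA cells, against 7841 CPM in control gRNA cells.

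In batch 1, with 4 dual gRNA cells, 7 members were compared, 1 was called higher (4.58% of all genes) and 2 lower (30.9% of all genes). Gstm1 was higher (1.82), and Cyp7b1 (-2.47; at least 41.0-fold lower) and Gstm5 (-4.32) were lower. A single Gstm5 read in dual gRNA cells gave a ratio of 535-fold lower with a counting interval of 95.8 to 21157. The higher ratios of Cyp4f15 (4.10), Cyp2j9 (3.82), Cyp4f13 (2.43) and Cyp2d22 (1.41) each came from 1 dual gRNA cell and were not called. Over the 3 batches, Gstm5 was called lower each time, although with TMM scaling (trimmed mean of M values) 0 members were called lower in batch 2. Gstm5 was selected on batches 4 and 2, so its calls there support nothing. In batch 1 its call rests on a single read in 4 dual gRNA cells. Gstm1 was called lower in batch 4 and higher in batches 2 and 1; scaled to astrocyte markers its ratios were 0.22, 0.38 and 0.90 in batches 4, 2 and 1, and 0 members were called higher in batch 1. With the mean CPM over cells its ratio in batch 2 was 0.62, which also ends that call. None of the 6 P450 genes was called in all 3 batches.

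Sox9 gRNA cells were compared with control gRNA cells of the same day in batch 4. Of 8 members compared, 0 were called higher (8.02% of all genes) and 2 lower (21.3%). Cyp2j9 (-4.36) and Gsta4 (-2.08) were lower. Gstm1 (0.89), Cyp2d22 (-0.81) and Gstm5 (-0.63) were within 2-fold with all cells and so were not called. Without the highest cells their ratios were 1.05, -1.56 and -1.09 in that order, each beyond 2-fold. The median over the 8 members with all cells was -0.25, against -0.59 over all 11550 genes. The count of lower members was near the share over all genes. Titles divide the Sox9 gRNA cells into 2 series, and Cyp2d22 had 0 of 6 cells with a read in one and 5 of 10 cells (123 CPM) in the other. These libraries also held 7657 CPM of 3 erythroid markers, against 38.4 CPM in control gRNA cells; their part in the result was not tested.

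In batch 5 all 9 members passed 5 CPM. Sox9 gRNA cells had 0 members called higher (13.7% of all genes) and 4 lower (14.02%) relative to no gRNA cells. Cyp4f15 (-1.96), Gstm5 (-1.44), Gsta4 (-1.28) and Cyp7b1 (-1.26) were lower, and Gstm1 had a ratio of 0.07. The median was -0.75, against 0.07 over all 12287 genes. Trps1 gRNA cells had 0 called higher (18.9% of all genes) and 2 lower (8.84%). Cyp2d22 (-1.63) and Cyp4f13 (-1.20) were lower, Gstm5 had a ratio of -0.06, and the median was -0.60, against 0.41 over all 12708 genes. Both comparisons share the no gRNA cells. Astrocyte markers summed to 13936 CPM in Sox9 gRNA and 17863 CPM in Trps1 gRNA cells, against 14711 CPM in no gRNA cells.

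Titles also divide the pools of batch 5. Cyp2d22 was 129, 102 and 11.6 CPM in the 3 series of Trps1 gRNA cells, against 246 and 187 CPM in the 2 series of no gRNA cells, so all 3 gRNA series lay below both others. Cyp4f13 was 97.6, 35.2 and 28.2 CPM in those Trps1 gRNA series, against 56.2 and 168 CPM in the no gRNA series, so 1 gRNA series lay above 1 no gRNA series. Its ratio of -1.20 was -0.13 for the series at 97.6 CPM alone and -0.32 against the series at 56.2 CPM alone. For Cyp2d22 the series at 129 CPM alone gave -0.74 in place of -1.63. Gsta4 was 80.3 CPM in one no gRNA series and 17.7 CPM in the other. Against the series at 17.7 CPM alone the ratio of Gsta4 in Sox9 gRNA cells was 0.047 in place of -1.28. Cyp7b1 was 23.1 and 72.2 CPM in the no gRNA series, and against the series at 23.1 CPM alone its ratio in Sox9 gRNA cells was -0.42 in place of -1.26. Each of these values ends the call.

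At day 7 in batch 3 the no gRNA pool was small and shallow, with 6 cells. Of 9 members compared, Sox9 gRNA cells had 3 called higher (48.2% of all genes) and 1 lower (3.22%). Cyp2j9 (1.66), Gsta4 (1.57) and Cyp4f13 (1.41) were higher and Cyp4f15 (-2.42) was lower. The no gRNA pool held only 7 reads of Gsta4. Its level of 16.1 CPM in Sox9 gRNA cells was below the 59.0 CPM of in-slice controls, 98.3% of which lay in 1 of 4 libraries. Dual gRNA cells had 1 called higher (39.01%) and 2 lower (5.29%), with Cyp2j9 (2.6) higher and Cyp4f15 (-3.57) and Cyp2d22 (-2.95) lower. The medians were -0.19 in Sox9 gRNA and -0.43 in dual gRNA cells, against 1.43 and 1.38 over all genes. Both comparisons share the no gRNA cells, whose microglial markers summed to 220 CPM with 6 of 10 read (Cx3cr1, C1qb, C1qc and Tmem119 at 0), while Sox9 gRNA cells held 8765 CPM and dual gRNA cells 6081 CPM. Gstm5 ratios of -1.81 and -2.27 were not called, because 85.6% of the no gRNA reads came from 1 cell.

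Control gRNA and no gRNA cells of batch 1 differed in most members although neither carried a guide against Sox9 or Trps1. Of 9 members compared, 0 were called higher (17.6% of all genes) and 7 lower (17.8%). Cyp4f15 had a ratio of -5.53, from 1 read, which is 2539-fold lower with a counting interval of 456 to 100286. Cyp2j9 (-4.31; at least 346-fold) and Cyp4f14 (-4.20; at least 321-fold) had no read in control gRNA cells. Cyp2d22 (-2.58), Gstm5 (-2.14), Gsta4 (-2.13) and Gstm1 (-1.75) were lower too. All 9 ratios were below 0, with a median of -2.14, against 0.26 over all 12221 genes. Astrocyte markers summed to 9396 CPM in control gRNA cells, against 14296 CPM in no gRNA cells, and microglial markers to 8918 CPM, against 307 CPM. Guide, virus, injection and days cannot be told apart here.

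Control gRNA cells of day 21 were set against those of day 7 in batch 2. Of 9 members compared, 0 were called higher (9.29% of all genes) and 2 lower (21.9%), a count near the share over all genes. Cyp7b1 (-2.99) and Cyp2j9 (-2.40) were lower at day 21. Cyp4f15 (at least 273-fold), Gsta4 (at least 123-fold) and Cyp4f13 (at least 95.8-fold) had no read at day 21 but came from 1 cell each at day 7 and were not called. Gstm1 (0.51) and Gstm5 (0.00) stayed within 2-fold. The median was -2.28, against -0.42 over all genes. It equals the ratio of Cyp4f13, whose day 7 reads came from 1 cell and whose ratio was 0 without the highest cells. With members at 0 set at their bound the median was -2.99. No like value over all genes was computed, so that median is not set against -0.42.

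**Figure D5:**
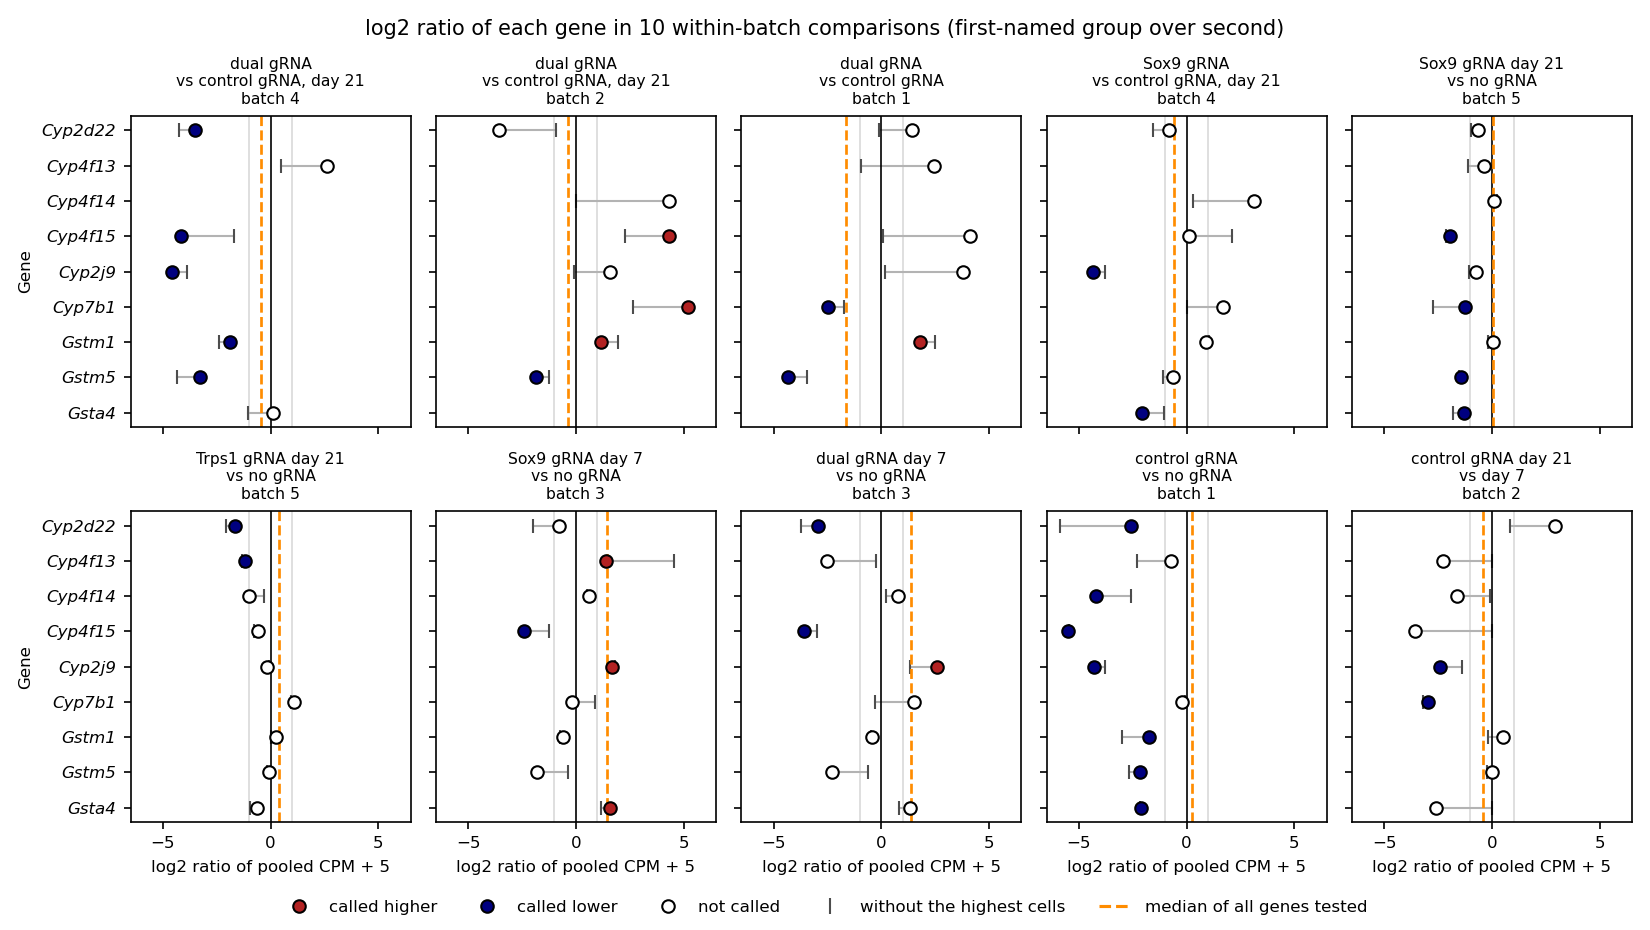
Ratio of each member, log2((CPM + 5)/(CPM + 5)), the first-named pool over the second, in each of the 10 comparisons within a batch; red points were called higher, blue points lower and open points neither, ticks are the ratios without the highest cells, and the dashed line is the median over all genes tested. Gstm5 lies below 0 in all 3 dual gRNA against control gRNA panels, but it was selected on those of batches 4 and 2. Among these 3, Gstm1 lies below 0 in batch 4 only. Ratios scaled to astrocyte markers, where Gstm1 is below 0 in none of the 3, are not drawn.

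Genes around the members were followed as lists. Of 23 other glutathione transferases, 11 were compared between dual and control gRNA cells of batch 4, with 1 called higher and 1 lower: Gstz1 was 25.8 CPM in dual gRNA cells, against 1.65 CPM in control gRNA cells, and Gstm4 was 0 against 45.9 CPM. Of 22 genes of glutathione synthesis and recycling, 19 were compared, with 2 higher and 2 lower. The cystine carrier Slc7a11 was called lower (3.17 CPM in dual gRNA cells, against 126 CPM in control gRNA cells). Oplah of the same list was called higher (16.8 CPM in dual gRNA cells, against 0.220 CPM in control gRNA cells). Of 20 genes of oxysterol, eicosanoid and epoxide metabolism, 14 were compared, with 1 higher and 5 lower, among them the lipoprotein-associated phospholipase Pla2g7 (96.3 CPM in dual gRNA cells, against 403 CPM in control gRNA cells). Over all genes of this comparison, 7.72% were called higher and 18.02% lower. The medians of these lists were -1.01, -0.15 and -0.70, against -0.43 over all genes. Some of these directions did not hold in other batches. Pla2g7 was called higher in dual than in control gRNA cells of batch 2 (1171 against 467 CPM) and batch 1 (721 against 241 CPM). Slc7a11 was called higher in batch 1 (566 against 57.9 CPM). Gstm4 was called lower in batch 2 as well (0 against 97.0 CPM).

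In batch 2 other transferases had 2 higher and 1 lower of 15, glutathione synthesis and recycling 4 and 4 of 16, and the oxysterol, eicosanoid and epoxide list 3 and 2 of 15, with medians of 0.80, 0.13 and 0.93, against -0.37 over all genes. NRF2 and its targets, the antioxidant response genes, had 5 of 13 called higher and 0 lower (11.8% and 14.5% of all genes), with the factor Nfe2l2 at 224 CPM in dual gRNA cells and listed without a read in control gRNA cells. The median of that list was 1.55 in batch 2. In batch 4 it had 2 higher and 2 lower of 13 with a median of -0.44, and in batch 1 it had 0 higher and 7 lower of 13 (4.58% and 30.9% of all genes) with a median of -1.56, against -1.65 over all genes. The batches thus gave no single direction for this list. In batch 2 the reductase Por was 200.2 CPM in dual gRNA cells and without a read in control gRNA cells, while in batch 1 it was 0.368 CPM in dual gRNA cells, against 124 CPM in control gRNA cells (log2 ratio -4.58, called lower).

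In batch 5 the P450 redox partners had 2 higher and 1 lower of 9 in Sox9 gRNA cells, with Por at 67.5 CPM, against 370 CPM in no gRNA cells. In Trps1 gRNA cells they had 3 higher and 0 lower of 9. The oxysterol, eicosanoid and epoxide list had 6 higher and 1 lower of 17 in Sox9 gRNA cells, and 2 higher and 3 lower of 16 in Trps1 gRNA cells. Other transferases had 1 higher and 3 lower of 12 in Sox9 gRNA cells, with Hpgds, the hematopoietic prostaglandin D synthase, at 66.1 CPM, against 0.624 CPM in no gRNA cells, and 5 higher and 2 lower of 12 in Trps1 gRNA cells. In Sox9 gRNA cells 13.7% of all genes were called higher and 14.02% lower, and the medians of the redox, oxysterol and transferase lists were 0.41, 1.01 and 0.12, against 0.07 over all genes. In Trps1 gRNA cells these shares were 18.9% and 8.84%, and the list medians were 0.69, 0.45 and 0.48, against 0.41 over all genes. Other P450 genes had 2 higher and 3 lower of 10 in Sox9 gRNA cells, and 0 higher and 2 lower of 11 in Trps1 gRNA cells. Their medians were -0.69 and -0.58. The sterol 27-hydroxylase Cyp27a1 was 25.7 CPM in Sox9 gRNA and 5.37 CPM in Trps1 gRNA cells, against 68.8 CPM in no gRNA cells. Hpgds was called higher in Trps1 gRNA cells too (33.1 CPM, against 0.624 CPM in no gRNA cells).

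Cell by cell, the members followed one another only weakly. Over 242 astrocytes, with batch means removed, Pearson's r of log levels between the 36 pairs ran from -0.04 to 0.44 with a median of 0.15; cells share batch, depth and astrocyte content. The highest was Cyp2d22 with Cyp4f15 (0.44), followed by Cyp4f15 with Cyp2j9 (0.36) and Gstm1 with Gstm5 (0.36). Among 5546 genes, those most like Cyp2d22 were Cyp4f15, Timp3 (0.43), Kcnj10 (0.41), Gpr37l1 (0.40) and Plpp3 (0.39). Those most like Gstm1 were Gstm2-ps1 (0.70), with which it shares sequence, then Atp1b2 (0.48), Clu (0.47), Slc1a2 (0.46) and Aldoc (0.46).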

How the data were processed

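Reads per gene were measured in single astrocytes by Smart-seq2. The authors deposited raw counts per gene and cell, whole numbers in 1 table per batch, and the submitters' processing notes name STAR 2.6.0a, RSEM 1.3.0, GRCm38 and mm10 with no role given. Entries naming no gene were left out of totals; they held 75.6% of counts in batch 1, 22.3% in batch 2 and under 1% elsewhere.

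Cells were summed by label, day and batch, since the labels name no animal, and single cells were not treated as replicates. CPM, exact intervals, ratios and calls were computed with Python 3.11.15, NumPy 2.4.6, pandas 2.3.3 and SciPy 1.17.1; figures were drawn with matplotlib 3.10.9. The calling step was tested on simulated data. Those data drew every cell of a pool around a shared rate, without the spread between cells seen here. They therefore give no error rate for the calls reported. For a count of 0 the floor was 3 reads per pool, and depth comparisons thinned each cell to 100000 reads.

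The 9 members and the 7 gene lists were chosen with earlier results of these data known. All 9 members are reported; from each list up to 3 called genes with the highest CPM could be named, and likeness was ranked for Cyp2d22 and Gstm1 among genes read in at least 30% of astrocytes. Alternatives were other pseudocounts (1 and 20 CPM), TMM scaling, mean CPM over cells, calls on all cells, no filter on low values, cells of at least 100000 reads, single title series, each dual gRNA cell of batch 1 left out, and, added after seeing the data, scaling to astrocyte markers.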

Additional observations from a re-analysis of the deposited data

Results flagged for a closer look

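Single cells stood far from the rest of their pool for several members. Of 43 combinations of a member and a pool of 4 to 10 cells, 19 had a highest cell whose gap to the next exceeded Dixon's 95% limit. Chance passes that limit in about 1 of 20 groups of ordinary values, but where all other cells are at 0 the gap is the whole range whatever the level, single reads included, so that rate does not apply there. In dual gRNA cells of batch 1 the highest cells held 1566 CPM of Cyp2d22, 802 CPM of Cyp4f15 and 633 CPM of Cyp2j9, all in 1 cell, 606 CPM of Cyp4f13 in another, and single reads of Gstm5 (1.79 CPM) and Gsta4 (0.531 CPM). In control gRNA cells of batch 1 they held 431.5 CPM of Cyp2d22, 39.5 CPM of Gsta4 and 1.24 CPM of Cyp4f15. The dual gRNA cells of batch 2 had a highest cell of 794 CPM for Cyp4f14. Control gRNA cells of day 21 in batch 2 had one of 430.4 CPM for Cyp2d22 and one of 19.9 CPM for Cyp7b1. Control gRNA cells of day 7 in that batch reached 19.1 CPM of Cyp2d22, 156 CPM of Cyp4f13, 69.1 CPM of Cyp4f14, 429 CPM of Cyp4f15 and 194 CPM of Gsta4. In no gRNA cells of batch 3 the highest cells held 113 CPM of Cyp7b1 and 188 CPM of Gsta4, of which that pool held 7 reads in all.

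Members were also read in in-slice controls, for which no cell was taken, above the level that 3 reads give. Gstm5 was 347 CPM in batch 2, 14.3 CPM in batch 3, 529 CPM in batch 4 and 13.8 CPM in batch 5. Gsta4 was 59.0 CPM in batch 3 and 80.0 CPM in batch 5, and Gstm1 was 1.99 CPM in batch 3 and 26.9 CPM in batch 5. Cyp4f15 was 9.97 CPM in batch 3. All Gsta4 reads of batch 5 came from 1 of 5 libraries, which also held 102 of the 105 Gstm1 reads. In batch 3, 349 of the 355 Gsta4 reads and every Cyp4f15 read came from 1 of 4 libraries. The source of these reads was not tested.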

How the results depend on the processing

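No paired analysis was possible because the labels name no animal and each pool is 1 sample. Of 194 recomputed counts of members called, 146 stayed within 1.5 times the reported count and 48 did not. The shares over all genes were not recomputed under these settings. The counts below therefore show only how the calls move, and nothing about the members is read from them. Of 336 recomputed ratios of called members, 3 changed sign and the cause was not tested. Gstm1 in dual gRNA against control gRNA cells of batch 4 was 0.22 after scaling to astrocyte markers. Gsta4 in Sox9 gRNA cells of batch 5 was 0.047 against no gRNA series AG alone. Gsta4 in Sox9 gRNA cells of batch 3 was -0.94 with mean CPM over cells. The no gRNA pool of that last ratio held 7 reads of Gsta4, 42.9% of them in its highest cell, at 188 CPM.

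In dual gRNA against control gRNA cells, batch 4 had 1 member higher on all cells only and 1 with scaling to astrocyte markers. In batch 2 the lower count was 2 with a pseudocount of 1, on all cells only and scaled to astrocyte markers, and 0 with TMM; the higher count was 5 on all cells only. In batch 1 the lower count was 1 with a pseudocount of 20, and the higher count was 5 on all cells only and 0 scaled to astrocyte markers; leaving out each dual gRNA cell in turn left the counts at 1 higher and 2 lower. In Sox9 gRNA against control gRNA cells of batch 4 the lower count was 1 with a pseudocount of 20, TMM or mean CPM and 4 for title series 21S alone, and the higher count was 1 with a pseudocount of 1, TMM or series 21S2 alone and 2 with mean CPM or on all cells only.

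In batch 5 the lower count of Sox9 gRNA cells was 2 with a pseudocount of 20. That of Trps1 gRNA cells was 1 with a pseudocount of 20 and 5 for series 21T3 alone, and their higher count was 1 with a pseudocount of 1, on all cells only or against series 2AG alone. In batch 3 the lower count of Sox9 gRNA cells was 0 with a pseudocount of 20, 4 with TMM, 2 with mean CPM, on all cells only or scaled to astrocyte markers, and 3 for series 7S alone; their higher count was 1 with a pseudocount of 20, TMM or series 7S2 alone. In dual gRNA cells the lower count was 4 with TMM or on all cells only, and the higher count was 2 with a pseudocount of 1, mean CPM, without cells under 100000 reads or scaled to astrocyte markers, 0 with a pseudocount of 20 or TMM, and 3 on all cells only. In control gRNA cells of day 21 against day 7 the lower count was 6 on all cells only and 1 scaled to astrocyte markers, and the higher count was 1 with a pseudocount of 1, on all cells only or scaled to astrocyte markers. The counts of control gRNA against no gRNA cells stayed within 1.5 times under every setting run.

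Intervals cover counting error only. With 1 pool per label, day and batch, differences between animals were not measured, and pools of 4 to 10 cells rest on few cells with a read. Calls for Cyp7b1, Gsta4, Cyp4f13 and Cyp4f14 rest on fewer cells with a read than those for Gstm1.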

Other observations

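Trps1 gRNA cells of day 7 in batch 4 belong in no comparison above, since no other pool of that batch shares their day. They held 68.3 CPM of Gstm1, 14.5 CPM of Gstm5 and 9.52 CPM of Gsta4, 224 CPM of Cyp4f13, 21.3 CPM of Cyp4f15, 16.6 CPM of Cyp2d22, 15.7 CPM of Cyp7b1, 11.6 CPM of Cyp2j9 and 2.79 CPM of Cyp4f14. In 5 of the 15 cells none of the 9 genes had a read. Astrocyte markers summed to 3145 CPM in this pool.

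Some list genes differed in batch 1 beside the members. In control gRNA cells the prostaglandin D synthase Ptgds was 6.06 CPM, against 1678 CPM in no gRNA cells, and the sterol demethylase Cyp51 was 5.52 CPM, against 178 CPM. The glutathione peroxidase Gpx1 was 1085 CPM in control gRNA cells, against 48.1 CPM in no gRNA cells, and the ferritin heavy chain Fth1 was 5202 CPM, against 847 CPM. The microglial markers were also higher in these control gRNA cells (8918 CPM) than in no gRNA cells (307 CPM); their part in these values was not tested.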
